A study of Mus musculus with 10 samples.

Results

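The cell cycle genes described here are 46 genes of the machinery that copies and divides the genome. Members were found by matching the gene symbols of the array's platform annotation, and 42 of the 46 were measured among 16383 genes in all. Ccnb1, Mki67, Aurkb and E2f2 had no probe under their symbol and are not analysed here. The measured genes comprise 14 of DNA replication, 13 of mitosis, 13 cyclins, cyclin-dependent kinases and their Cdc25 phosphatases, and the transcription factors E2f1 and Foxm1.

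Liver RNA of 6 Tgfbr2+/- mice (written Tgfbr-/+ males in the titles), which are heterozygous for a knockout of the type II TGF-beta receptor, was compared with that of 4 wild-type littermates, all on a chow diet. Each library is a log ratio on a 2-colour array against pooled liver RNA of 6 wild-type mice on chow. Dye swaps are mentioned in the design text, but not how they were joined. Age, strain, the structure of the mutant allele, the sex of the wild-type mice and whether they contributed to the pool are not given in the sources used here. All values are log2 ratios over the pool, so they show neither the level of a gene nor the order of levels between genes. Differences are Tgfbr2+/- minus wild type with their standard error. The number of arrays limits the precision.

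A quiescent cell enters the cycle when D-type cyclins with Cdk4 or Cdk6 release E2F transcription factors from the retinoblastoma proteins, and E2F then switches on genes of DNA replication. A later wave of genes, bound by the DREAM and MuvB complexes and by Foxm1, serves mitosis. Adult hepatocytes divide rarely but many are polyploid, and TGF-beta is known to restrain their division, in part through cyclin-dependent kinase inhibitors and repression of Myc.

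The ratio is likely sample over pool, but the labels do not settle this. The basis is that the titles put the pool first, that channel 1 carries Cy3 and channel 2 Cy5, and that Tgfbr2 was lower in the heterozygotes, which rests on 1 of its 2 probes. Tgfbr2 averaged -0.32 ± 0.22 in Tgfbr2+/- livers (SD, n = 6) and 0.15 ± 0.19 in wild-type livers (SD, n = 4), as the mean of 2 probes. The probes disagreed, with a difference of -0.88 ± 0.26 on one and of -0.070 ± 0.086 on the other. The library labelled Tgfbr2+/- replicate 4 was at 0.049 for Tgfbr2, within the wild-type range of -0.074 to 0.37, which goes against its label. This reading depends on the probe: on the first, replicate 4 was at 0.20 and the other Tgfbr2+/- libraries at -1.11 to -0.60, against -0.29 to 0.64 in wild type. On the second, replicate 4 was at -0.10, below all wild-type libraries (0.040 to 0.23), and replicates 2, 3 and 6 lay within or above their range. Wild-type replicate 1 and Tgfbr2+/- replicate 5 correlated at -0.325 over all probes, so the direction of either column is not certain. As deposited, each lay within the range of its own group for Tgfbr2, at 0.23 and -0.49. The same held for the mean of the Kupffer cell and macrophage markers, at -0.18 and 0.20. The main counts are also given with each of these columns turned in sign. Should every column run opposite to this, each difference would change sign. Column medians lay between 0.0043 and 0.016, and markers of hepatocytes averaged -0.14 to 0.020 in Tgfbr2+/- libraries and -0.13 to 0.10 in wild-type libraries. Since the pool is liver too, such ratios cannot check the tissue.

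Most cell cycle genes differed little between Tgfbr2+/- and wild-type liver, and none passed the adjusted threshold of 0.05 in limma's test across all genes. Their differences leaned upward, with a median of 0.043 and 30 of 42 positive, where all genes had a median of 0.0044 and 52.6% positive. At an unadjusted p under 0.05, 6 cell cycle genes were higher in Tgfbr2+/- liver (Mcm6, Cdc20, Kif11, Cenpa, Cdk1 and E2f1) and 3 were lower (Blm, Rrm2 and Nusap1). Among all genes 2.97% were higher and 2.57% lower by the same rule, or 5.54% in all, while the 9 cell cycle genes are 21.4% of those measured. The cell cycle genes were chosen with earlier results of these data known, so these shares were not tested against each other. The median difference was 0.074 in mitosis, 0.054 in cyclins and kinases and -0.034 in replication, and whether these groups differ from each other was not tested. In whole liver, a different number of dividing cells and a different amount of RNA per dividing cell cannot be told apart.

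Over all genes 0 passed the adjusted threshold (smallest limma adjusted p = 0.115), and 908 had an unadjusted p under 0.05. When wild-type replicate 1 was turned in sign, 2 cell cycle genes were higher and 1 was lower at an unadjusted p under 0.05, and with that of Tgfbr2+/- replicate 5 turned there were 0 and 0. Leaving out wild-type replicate 1, Tgfbr2+/- replicate 4 or Tgfbr2+/- replicate 5 also left 2 genes higher in each case, and without wild-type replicate 2 there were 3. Of 21 alternatives in all, Rrm2 lost its unadjusted p under 0.05 in 14, Cdc20 in 13, Kif11 in 12, and Nusap1, Cdk1 and E2f1 in 10 each, while Mcm6 and Cenpa lost it in 2 and Blm in 1. The number lower was 1 without wild-type replicate 1 or 3 or without Tgfbr2+/- replicate 1, 2 or 5.

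**Figure D1:**
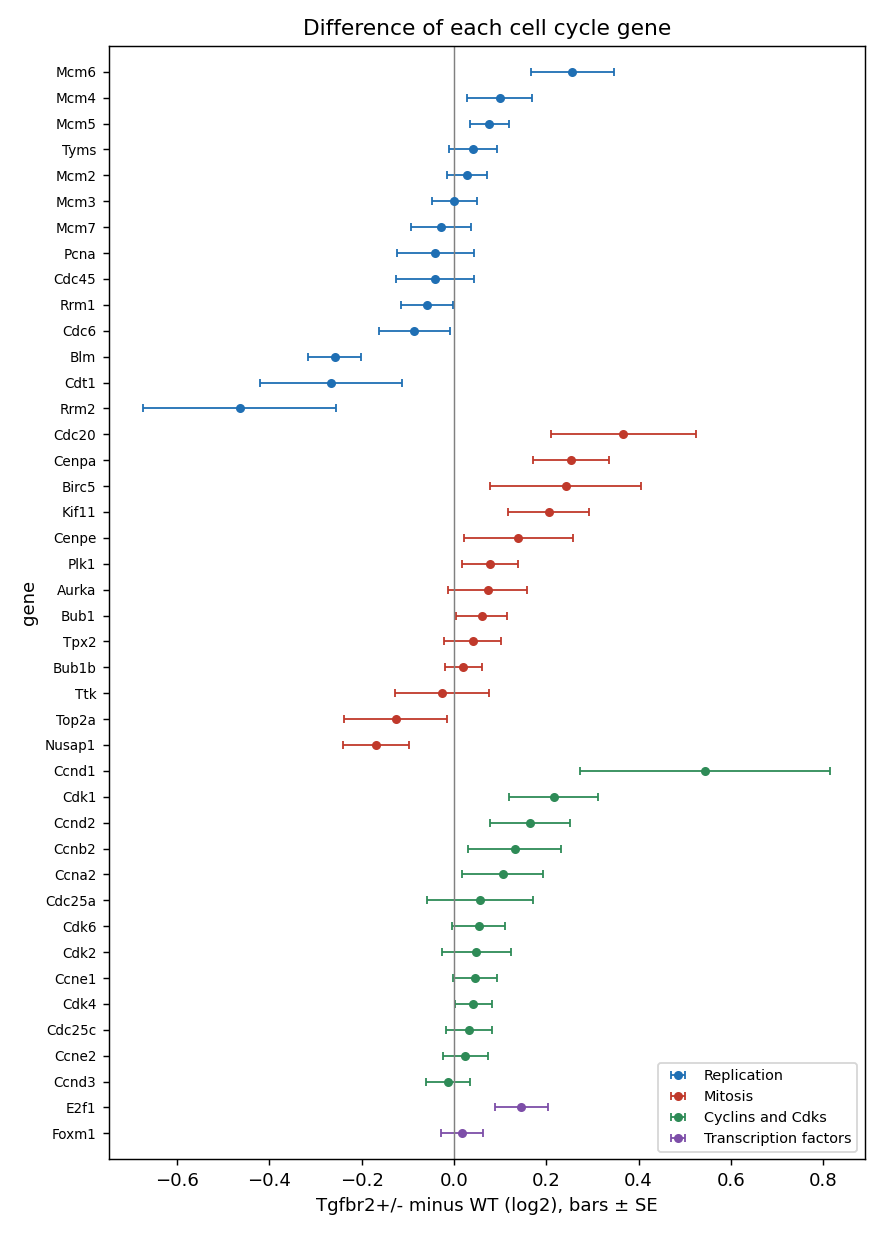
Difference of each of the 42 measured cell cycle genes (x axis, Tgfbr2+/- minus wild type, log2), with bars of ± 1 SE, coloured by functional group. Mitosis genes, cyclins and kinases lie mostly right of 0, up to 0.37 for Cdc20 and 0.54 for Ccnd1, and replication genes lie on both sides, from 0.26 for Mcm6 to -0.46 for Rrm2.

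The replication genes had 6 positive and 8 negative differences, where 52.6% of all genes were positive. They hold the gene of smallest p in the whole set. This was Blm, the Bloom syndrome RecQ helicase, which unwinds recombination intermediates and stalled replication forks. Its log2 ratio was lowest at -0.37, median -0.26 and highest at -0.16 in Tgfbr2+/- livers, against -0.0083, -0.015, 0.11 and -0.084 in wild-type livers. All 6 Tgfbr2+/- libraries lay below all 4 wild-type libraries, which holds for 0.354% of all genes. The difference was -0.26 ± 0.057, or 1.20-fold lower (limma p = 0.000837, adjusted p = 0.358, exact permutation p = 0.0048, the smallest that 210 splits can give). Blm was the only member whose groups did not overlap. None lay wholly above wild type, as 0.726% of all genes did. With Tgfbr2+/- replicate 5 turned, the difference was -0.18 and limma's unadjusted p 0.129.

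Rrm2, the small subunit of ribonucleotide reductase that makes deoxyribonucleotides, had the largest negative difference. It ranged from -0.60 to 0.18 with a median of -0.22 in Tgfbr2+/- livers, against 0.22, 0.33, 0.73 and -0.40 in wild-type livers. Wild-type replicate 4 lay below 4 of the 6 Tgfbr2+/- libraries, so the groups overlapped. The difference was -0.46 ± 0.21 (limma p = 0.0485, adjusted p = 0.900, exact permutation p = 0.0952), and without wild-type replicate 4 it was -0.67. Rrm1, the large subunit of the same enzyme, differed by -0.058 ± 0.057.

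The minichromosome maintenance proteins Mcm2 to Mcm7 form the hexameric helicase that is loaded at replication origins. Of the 6 genes, Mcm6 had the largest difference, at -0.040 to 0.48 with a median of 0.23 in Tgfbr2+/- livers and at -0.11, -0.072, 0.0083 and 0.058 in wild-type livers. Only Tgfbr2+/- replicate 2, the lowest of its group, lay within the wild-type range. The difference was 0.26 ± 0.089, or 1.19-fold higher (limma p = 0.0154, adjusted p = 0.768, exact permutation p = 0.0333). Mcm6 kept an unadjusted p under 0.05 when any single library was left out, and lost it with Tgfbr2+/- replicate 5 turned (0.14) or with Tgfbr2+/- replicates 4 and 5 left out together. The other subunits, which work in the same ring, differed by 0.10 ± 0.071 for Mcm4, 0.077 ± 0.043 for Mcm5, 0.028 ± 0.044 for Mcm2, 0.00091 ± 0.048 for Mcm3 and -0.027 ± 0.065 for Mcm7. The 2 probes of Mcm3 had opposite signs, at 0.018 and -0.017.

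The factors that load the helicase did not lean upward. Cdt1, which brings the Mcm ring to origins with Cdc6, is added after its values were seen, and was at -0.58 to 0.13 with a median of -0.18 in Tgfbr2+/- livers and at -0.030, 0.12, 0.30 and -0.23 in wild-type livers. Tgfbr2+/- replicates 1, 2 and 4 were the lowest of all libraries, at -0.32, -0.55 and -0.58, and the difference was -0.27 ± 0.15 (limma p = 0.113, exact permutation p = 0.186). Cdc6 differed by -0.086 ± 0.077, and Cdc45, which joins the ring to make the active helicase, by -0.040 ± 0.085. Pcna, the sliding clamp of the replicative polymerases, differed by -0.040 ± 0.083 over 2 probes that gave -0.043 and -0.037, and Tyms, the thymidylate synthase, by 0.041 ± 0.052.

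Of the 13 mitosis genes 10 had positive and 3 had negative differences, where 52.6% of all genes were positive. At an unadjusted p under 0.05, 3 were higher and 1 was lower, beside 2.97% and 2.57% of all genes. Cdc20, the activator of the anaphase-promoting complex that starts chromosome separation, had the largest difference. In Tgfbr2+/- replicates 1 to 6 it was at -0.18, -0.16, 0.35, 0.42, 0.68 and 0.45, against -0.14, -0.11, -0.082 and -0.10 in wild-type replicates 1 to 4. Tgfbr2+/- replicates 1 and 2 lay just below all wild-type libraries and the other 4 lay well above them. The standard deviation was 0.35 among Tgfbr2+/- libraries and 0.025 among wild-type libraries. The difference was 0.37 ± 0.16, or 1.29-fold higher (limma p = 0.0400, adjusted p = 0.876, exact permutation p = 0.138).

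Cenpa, the histone H3 variant that marks centromeres, ranged from -0.082 to 0.39 with a median of 0.15 in Tgfbr2+/- livers, against -0.16, -0.10, -0.21 and 0.029 in wild-type livers. Only Tgfbr2+/- replicate 2 lay within the wild-type range, and the difference was 0.25 ± 0.082 (limma p = 0.0107, adjusted p = 0.732, exact permutation p = 0.0190). Like Mcm6 it kept an unadjusted p under 0.05 without any single library. It lost it when wild-type replicate 1 (0.17) or Tgfbr2+/- replicate 5 (0.12) was turned. Kif11, the kinesin motor that pushes spindle poles apart, was at -0.075 to 0.37 with a median of 0.16 in Tgfbr2+/- livers and at -0.082, -0.23, 0.023 and 0.039 in wild-type livers. Tgfbr2+/- replicates 1 and 2 lay within the wild-type range and the other 4 above it, and the difference was 0.21 ± 0.088 (limma p = 0.0405, adjusted p = 0.881, exact permutation p = 0.0714).

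Nusap1, a microtubule-binding protein of the spindle, went the other way. It was at -0.31 to 0.074 with a median of -0.12 in Tgfbr2+/- livers and at 0.18, -0.020, 0.034 and 0.057 in wild-type livers. Tgfbr2+/- replicate 6 was the exception, lying above all wild-type libraries but replicate 1. The difference was -0.17 ± 0.071 (limma p = 0.0377, adjusted p = 0.869, exact permutation p = 0.0619). Top2a, the topoisomerase that untangles sister chromatids, was at -0.37 to 0.27 with a median of -0.071 in Tgfbr2+/- livers and at 0.15, -0.13, 0.15 and 0.090 in wild-type livers. The groups overlapped across most of their range, with a difference of -0.13 ± 0.11 (limma p = 0.284, exact permutation p = 0.352).

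The remaining mitosis genes differed by between -0.026 (Ttk, a kinase of the spindle checkpoint) and 0.24 (Birc5, the survivin subunit of the chromosomal passenger complex). Birc5 and the kinetochore motor Cenpe, both added after their values were seen, shared the low values of Cdc20 in Tgfbr2+/- replicates 1 and 2. Birc5 was at -0.10, -0.26, 0.29, 0.41, 0.65 and 0.025 in Tgfbr2+/- replicates 1 to 6, against -0.13, -0.18, 0.19 and -0.18 in wild-type replicates 1 to 4. Cenpe was at -0.10, -0.25, 0.21, 0.36, 0.33 and 0.26 in Tgfbr2+/- replicates 1 to 6, against -0.011, -0.13, 0.047 and 0.077 in wild-type replicates 1 to 4. For both genes Tgfbr2+/- replicates 1 and 2 were the lowest of their group. The difference was 0.24 ± 0.16 for Birc5 (exact permutation p = 0.224) and 0.14 ± 0.12 for Cenpe (exact permutation p = 0.319). The checkpoint kinase Bub1 and its relative Bub1b did not share this order, since Bub1 was highest in Tgfbr2+/- replicate 2, at 0.26.

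**Figure D2:**
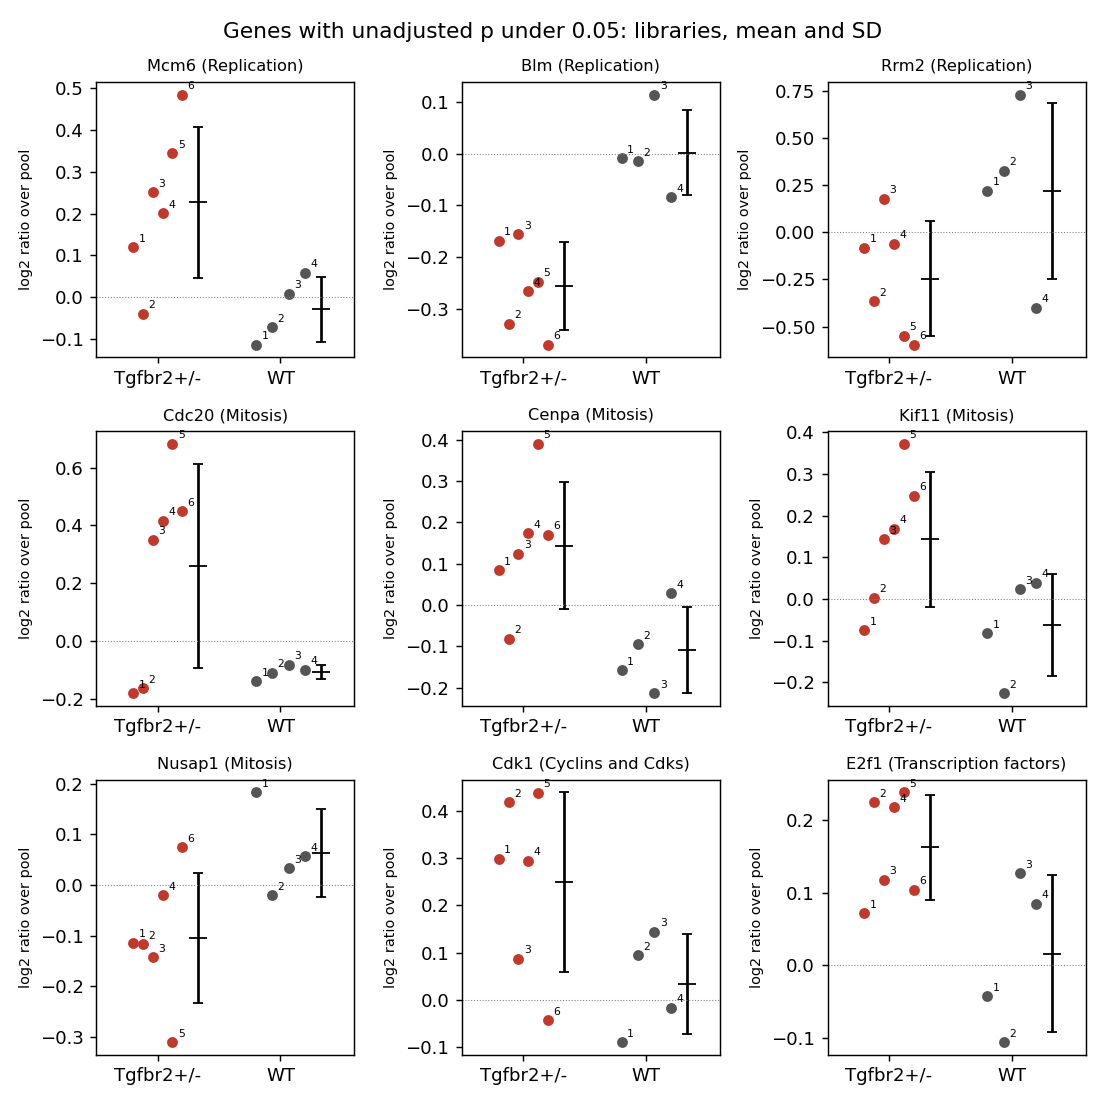
Log2 ratio over the pool (y axis) of the 9 cell cycle genes with an unadjusted p under 0.05, one point per library with its replicate number, Tgfbr2+/- left and wild type right, and the mean with SD beside each group. The groups are fully apart for Blm only, and Cdc20 splits into Tgfbr2+/- replicates 1 and 2 at -0.18 and -0.16 and the other 4 at 0.35 to 0.68.

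Cyclins, their kinases and the Cdc25 phosphatases were positive in 12 of 13 cases, mostly by small amounts, where 52.6% of all genes were positive. An unadjusted p under 0.05 was seen for 1 gene of this group, or 7.69% beside 5.54% of all genes. That gene was Cdk1, the kinase that drives entry into mitosis with the A- and B-type cyclins. It was at 0.30, 0.42, 0.087, 0.29, 0.44 and -0.043 in Tgfbr2+/- replicates 1 to 6, against -0.089, 0.094, 0.14 and -0.017 in wild-type replicates 1 to 4. Here Tgfbr2+/- replicates 1 and 2 were among the high libraries and replicate 6 was the lowest of its group, unlike Cdc20. The difference was 0.22 ± 0.096 (limma p = 0.0457, adjusted p = 0.900, exact permutation p = 0.0857).

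The cyclin partners of Cdk1 followed the pattern of Cdc20 instead. Ccnb2, a B-type cyclin added after its values were seen, was at -0.12, -0.21, 0.21, 0.19, 0.26 and 0.23 in Tgfbr2+/- replicates 1 to 6, against -0.054, -0.10, 0.12 and -0.12 in wild-type replicates 1 to 4. Ccna2, which acts in S phase and in early mitosis and was added likewise, was at -0.18, -0.043, 0.19, 0.26, 0.27 and 0.079 in Tgfbr2+/- replicates 1 to 6, against -0.081, 0.032, 0.044 and -0.034 in wild-type replicates 1 to 4. Tgfbr2+/- replicates 1 and 2 were the lowest of their group for both. The differences were 0.13 ± 0.10 for Ccnb2 and 0.11 ± 0.088 for Ccna2 (exact permutation p = 0.295 and 0.281).

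Ccnd1, the D-type cyclin that starts the cycle in hepatocytes, had the largest difference of all members and the widest spread. It ranged from -0.070 to 0.90 with a median of 0.27 in Tgfbr2+/- livers, against -0.67, 0.53, -0.71 and 0.063 in wild-type livers. Wild-type replicate 2 lay above 4 of the Tgfbr2+/- libraries. The difference of 0.54 ± 0.27, or 1.46-fold, did not exceed that spread (limma p = 0.0696, adjusted p = 0.917, exact permutation p = 0.119), and was 0.79 without wild-type replicate 2 (limma unadjusted p = 0.0103) and 0.21 with wild-type replicate 1 turned. Ccnd2 was at 0.013 to 0.30 with a median of 0.13 in Tgfbr2+/- livers and at -0.13, -0.11, -0.13 and 0.26 in wild-type livers. Wild-type replicate 4 stood apart from its group, and the difference was 0.17 ± 0.086 (limma p = 0.0823, exact permutation p = 0.110), or 0.26 without that library (limma unadjusted p = 0.00253). Over all 21 alternatives the difference of Ccnd2 ranged from 0.098 to 0.26, and limma's unadjusted p from 0.00253 to 0.278.

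The other genes of this group differed by between -0.012 (Ccnd3) and 0.057 (Cdc25a, a phosphatase that activates cyclin-dependent kinases), and none reached an unadjusted p of 0.05. Cdk4, a D-type cyclin partner read by 3 probes, averaged 0.037 ± 0.040 in Tgfbr2+/- livers (SD, n = 6) and -0.0047 ± 0.041 in wild-type livers (SD, n = 4).

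E2f1, the transcription factor that turns on replication genes, was at 0.072 to 0.24 with a median of 0.17 in Tgfbr2+/- livers and at -0.042, -0.11, 0.13 and 0.084 in wild-type livers. All 6 Tgfbr2+/- libraries lay above the pool, and 3 of them above every wild-type library. The difference was 0.15 ± 0.058, or 1.11-fold higher (limma p = 0.0290, adjusted p = 0.840, exact permutation p = 0.0476). Foxm1, the forkhead factor of mitotic genes, was at -0.069 to 0.074 with a median of -0.0027 in Tgfbr2+/- livers and at -0.0037, -0.083, 0.040 and 0.014 in wild-type livers. The groups overlapped over most of their range, with a difference of 0.017 ± 0.045.

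**Figure D3:**
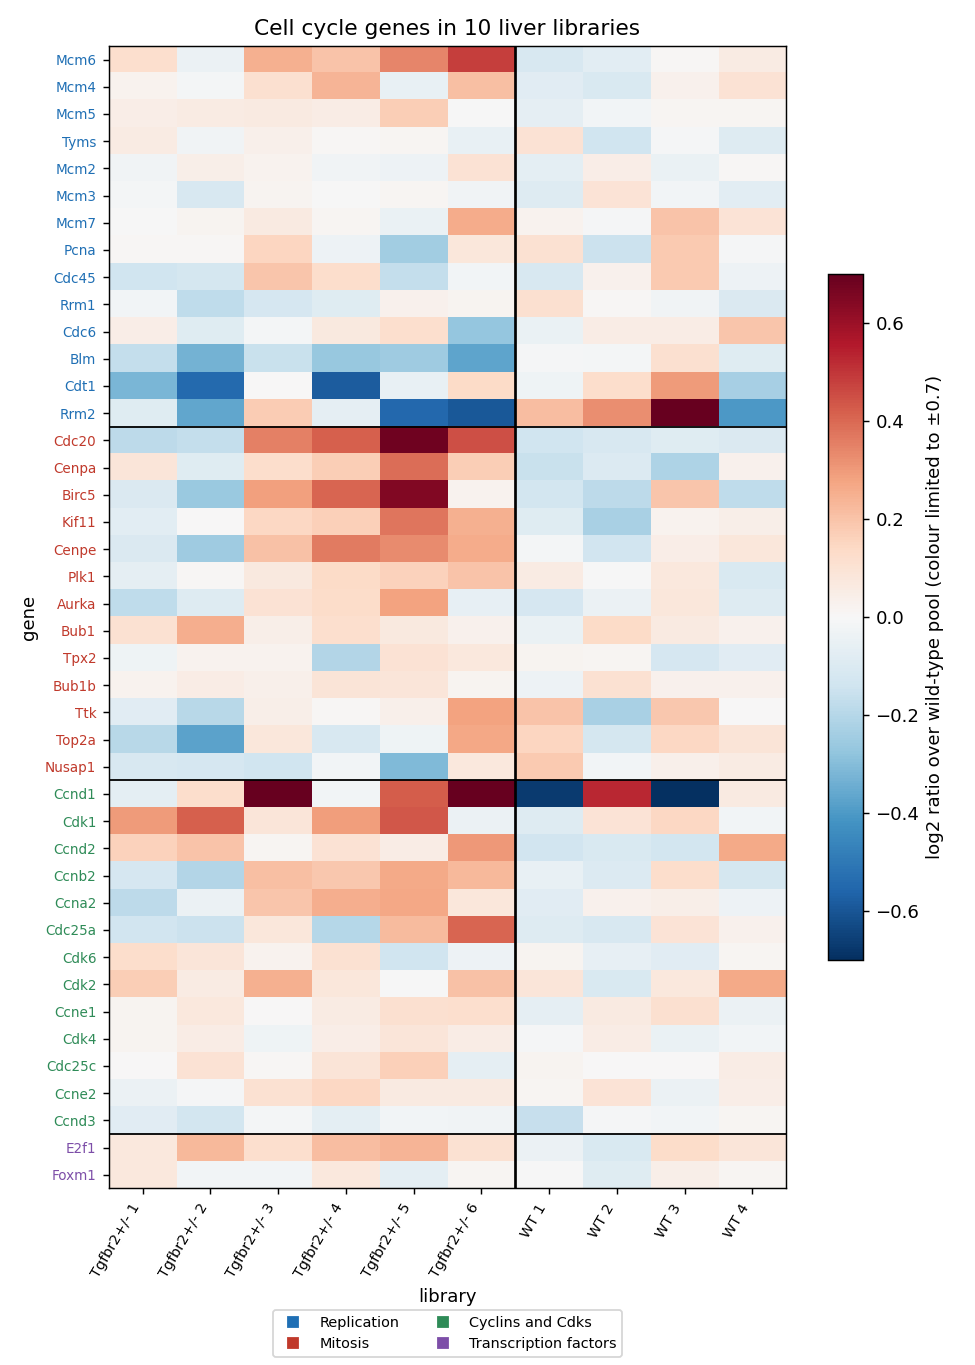
Log2 ratio over the pool (colour, limited to ± 0.7) of the 42 measured cell cycle genes (rows, by functional group and then by difference) in the 6 Tgfbr2+/- libraries (left) and the 4 wild-type libraries (right). Cdc20, Birc5, Cenpe and Ccnb2 are red in Tgfbr2+/- replicates 3 to 5 and blue in replicates 1 and 2, and Blm is blue in all 6.

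The upstream sequences of 5 of these genes are shown as examples of motif arrangements among genes with an unadjusted p under 0.05: the mitosis genes Cdc20 and Kif11, the kinase gene Cdk1 and the replication genes Mcm6 and Blm. They were chosen after the motifs were seen, so they set no functional group against another. Each is the stretch of 250 bases before the transcription start in RefSeq (GRCm38.p6), 5′ to 3′ on the gene's own strand. It was searched on both strands for CCAAT, the box bound by NF-Y, for TTTGAA and TTCGAA, forms of the cell cycle genes homology region (CHR) bound by MuvB complexes, and for GCGCGAA and GCGCCAA, forms of the E2F site. Matches are in capitals. The stretches are chr4:118437344-118437593 (minus strand) for Cdc20, chr19:37376132-37376381 (plus strand) for Kif11, chr10:69352913-69353162 (minus strand) for Cdk1, chr1:128359706-128359955 (minus strand) for Mcm6 and chr7:80534999-80535248 (minus strand) for Blm.
Cdc20: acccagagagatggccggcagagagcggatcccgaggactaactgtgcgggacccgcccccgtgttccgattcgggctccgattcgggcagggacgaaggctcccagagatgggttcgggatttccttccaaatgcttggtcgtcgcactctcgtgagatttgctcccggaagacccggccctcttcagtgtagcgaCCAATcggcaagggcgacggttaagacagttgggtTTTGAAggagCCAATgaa
Kif11: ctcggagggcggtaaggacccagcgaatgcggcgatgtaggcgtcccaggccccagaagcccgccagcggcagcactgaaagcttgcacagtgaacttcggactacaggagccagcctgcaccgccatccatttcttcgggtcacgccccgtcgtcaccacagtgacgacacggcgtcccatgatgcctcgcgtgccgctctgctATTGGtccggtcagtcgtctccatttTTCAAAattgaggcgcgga
Cdk1: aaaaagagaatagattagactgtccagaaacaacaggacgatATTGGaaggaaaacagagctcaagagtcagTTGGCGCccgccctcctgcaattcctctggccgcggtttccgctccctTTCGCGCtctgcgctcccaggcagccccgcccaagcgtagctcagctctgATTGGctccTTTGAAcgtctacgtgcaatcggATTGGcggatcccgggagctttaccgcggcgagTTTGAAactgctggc
Mcm6: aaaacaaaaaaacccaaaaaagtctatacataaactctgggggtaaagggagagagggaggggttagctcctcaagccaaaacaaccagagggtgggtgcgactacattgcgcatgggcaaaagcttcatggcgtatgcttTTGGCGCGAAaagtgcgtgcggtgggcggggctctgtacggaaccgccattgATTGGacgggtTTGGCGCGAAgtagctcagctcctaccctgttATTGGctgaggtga
Blm: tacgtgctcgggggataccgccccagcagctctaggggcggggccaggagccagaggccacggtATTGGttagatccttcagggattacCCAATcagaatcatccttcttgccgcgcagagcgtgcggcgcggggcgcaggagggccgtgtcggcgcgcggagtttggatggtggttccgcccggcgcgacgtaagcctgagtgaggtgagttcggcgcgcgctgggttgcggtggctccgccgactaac

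In Cdc20, Kif11 and Cdk1 the leftmost base of a TTTGAA match lay at -18, -19 and -15, counted from the start, and that of a CCAAT match at -53, -45 and -48. Cdk1 held a second such pair further upstream, at -71 and -80, and a match to each E2F form. Mcm6 held no CHR match but 2 places where GCGCGAA and GCGCCAA overlap on opposite strands, leftmost at -109 and -46, and 2 CCAAT matches. Blm held 2 CCAAT matches and neither of the others. CHR forms were not confined to a functional group. The mitosis genes Bub1b and Top2a also held a CHR form, while Cenpa, Aurka, Bub1, Cenpe, Plk1 and Ttk held none. The replication genes Mcm2 and Cdc45 held TTTGAA at -70 and -240, and Mcm7 held TTCGAA. E2F forms were found in Mcm5, Mcm6, Cdk1 and Cdc25a, none of which is in the mitosis group. Of the 42 genes 34 had a promoter in the table, with 36 stretches in all. CCAAT was found in 26 of the 36, or 72.2%, and in 33.8% of all 32851 stretches of the same length. A CHR form was found in 25% against 17.1% of all, and an E2F form in 11.1% against 3.14%. These matches describe the letters and do not show binding.

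The mitosis genes varied between libraries. In Tgfbr2+/- replicates 1 to 6, 3, 5, 12, 10, 11 and 12 of the 13 mitosis genes lay above the pool, against 5, 3, 10 and 8 in wild-type replicates 1 to 4. Over all genes the share above the pool was 52.3% to 53.7% in Tgfbr2+/- libraries and 51.4% to 55.6% in wild-type libraries. The mean log2 ratio of the mitosis genes was -0.070 and -0.091 in Tgfbr2+/- replicates 1 and 2 and 0.11 to 0.22 in the other 4, against -0.070 to 0.036 in wild-type libraries. Tgfbr2+/- replicates 3 to 6 thus lay above all wild-type libraries, and replicates 1 and 2 about level with the lowest, wild-type replicate 2. The standard deviation was larger among Tgfbr2+/- than among wild-type libraries for 11 of the 13 mitosis genes and for 27 of all 42 cell cycle genes, where 63.9% of all genes had the larger value in Tgfbr2+/-.

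The replication genes showed another order. Their mean was 0.057 in Tgfbr2+/- replicate 3 and -0.12 to -0.0036 in the other Tgfbr2+/- libraries, against -0.0031, 0.012, 0.12 and -0.039 in wild-type replicates 1 to 4. Wild-type replicate 3 had the highest mean of all 10, which includes its high values of Rrm2 and Cdt1. By the median over these genes Tgfbr2+/- replicate 3 was higher, at 0.049 against 0.042. Without wild-type replicate 3 the median difference of the replication genes was 0.012 in place of -0.034. Cyclins and kinases averaged 0.013 to 0.17 in Tgfbr2+/- libraries and -0.094 to 0.040 in wild-type libraries.

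**Figure D4:**
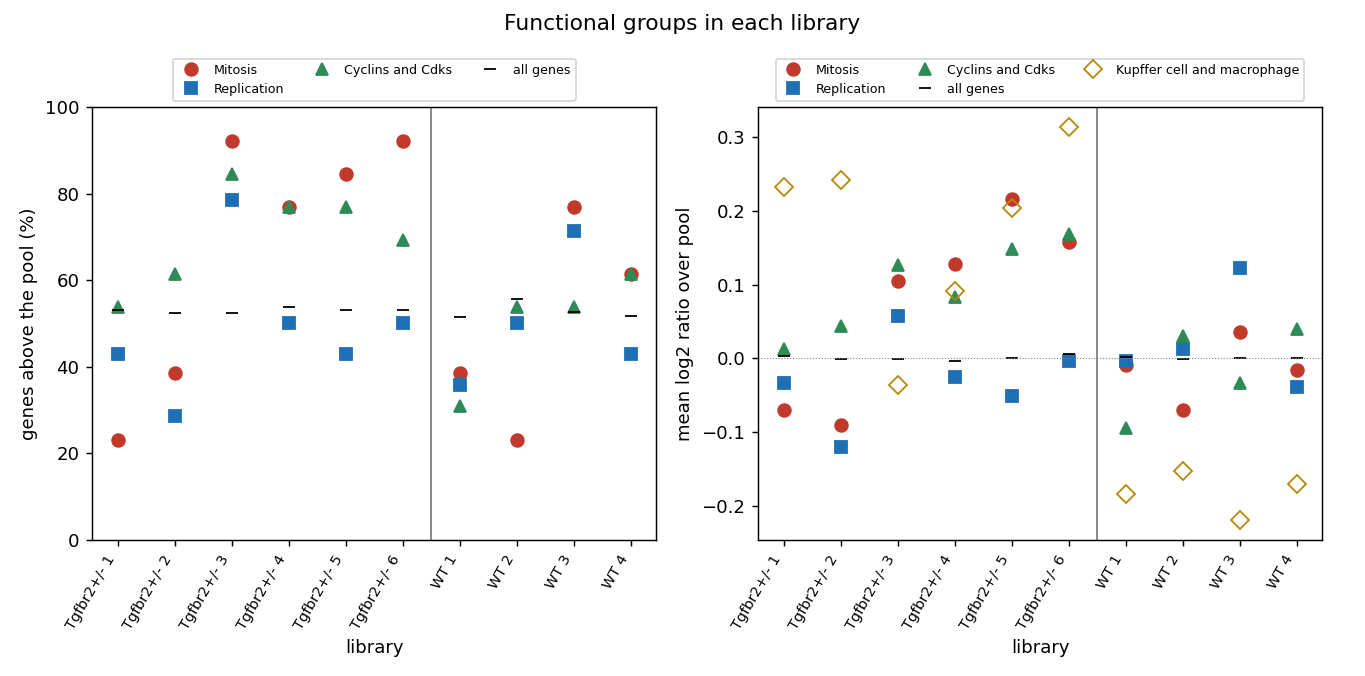
Share of genes above the pool (left, %) and mean log2 ratio over the pool (right) of the mitosis genes, replication genes, cyclins and kinases and all genes in each library, Tgfbr2+/- left of the line and wild type right of it, with the Kupffer cell and macrophage markers added on the right. Mitosis genes are at -0.070 and -0.091 in Tgfbr2+/- replicates 1 and 2, where the macrophage markers are at 0.23 and 0.24. In Tgfbr2+/- replicates 4 to 6 the means of both lists lie above the pool.

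Of 13 measured Kupffer cell and macrophage markers 12 had positive differences, where 52.6% of all genes did. At an unadjusted limma p under 0.05, 10 of them were higher, beside 2.97% of all genes. The mean log2 ratio of these markers was -0.037 to 0.31 in Tgfbr2+/- libraries and -0.22 to -0.15 in wild-type libraries. On the macrophage list Tgfbr2+/- replicates 1 and 2 were at 0.23 and 0.24, and replicate 3, where 12 of 13 mitosis genes lay above the pool, was at -0.037. Tgfbr2+/- replicates 4 to 6 were at 0.091, 0.20 and 0.31 on that list, and their mitosis genes averaged 0.13, 0.22 and 0.16. Neutrophil and myeloid progenitor markers, of which 7 were measured, averaged 0.050 to 0.30 in Tgfbr2+/- libraries and -0.15 to 0.067 in wild-type libraries. Lymphocyte markers (10 measured) averaged -0.0074 to 0.13 in Tgfbr2+/- libraries and -0.023 to 0.070 in wild-type libraries, and erythroid markers (7 measured) -0.23 to 0.075 and -0.32 to 0.036 in the same order. Stellate markers (7 measured) averaged -0.066 to 0.14 in Tgfbr2+/- libraries and -0.11 to 0.035 in wild-type libraries. For cholangiocyte markers (6 measured) the means were -0.25 to 0.098 and -0.095 to 0.11 in the same order. Endothelial markers (8 measured) averaged -0.024 to 0.066 in Tgfbr2+/- and -0.041 to 0.012 in wild-type libraries. The part of any of these cells in the cell cycle values was not tested.

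Against the pool, 11 cell cycle genes lay above it and 3 below it in Tgfbr2+/- liver at an unadjusted p under 0.05, and 0 did in either direction in wild-type liver. By the same rule 11.1% of all genes lay above and 7.21% below the pool in Tgfbr2+/- liver, and 2.13% and 2.01% in wild-type liver. Bub1, Ccnd2, Cdk2, Mcm5 and Plk1 were among the 11, and the 3 below were Blm, Cdt1 and Nusap1. None passed the adjusted threshold, Blm coming closest (-0.26, limma adjusted p = 0.0732), and in all 2 genes of the array passed in Tgfbr2+/- liver and 0 in wild-type liver. A dye effect that the swaps did not cancel would enter these means directly, the spread between the pooled mice is not measured, and the Tgfbr2+/- libraries are those of the comparison above. The wild-type means rest on 4 libraries and the Tgfbr2+/- means on 6. Whether the wild-type mice contributed to the pool, which would draw their means towards it, is not given.

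Inhibitors of the cycle were set beside its drivers, since TGF-beta is known to act through them. Of 17 measured inhibitors and pocket proteins 11 had positive and 6 negative differences, and 1 in each direction had an unadjusted p under 0.05. These 2 are 11.8% of the list, beside 5.54% of all genes, of which 52.6% had positive differences. Cdkn1a, which encodes p21, was at -0.57 to -0.23 with a median of -0.43 in Tgfbr2+/- livers, against -0.10, 0.19, 0.22 and -0.57 in wild-type livers. Wild-type replicate 4 lay just below every Tgfbr2+/- library, and the difference was -0.36 ± 0.14 (limma p = 0.0290, adjusted p = 0.840, exact permutation p = 0.0714). Btg2, an antiproliferative gene induced by p53, differed by 0.30 ± 0.12 (limma p = 0.0302, exact permutation p = 0.0524), with wild-type replicates 1 and 4 at -0.46 and -0.33 below all others. With wild-type replicate 1 turned its difference was 0.073.

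Cdkn2b, which encodes p15 and is induced by TGF-beta in epithelial cells, was at -0.19 to 0.16 in Tgfbr2+/- livers and at -0.11 to 0.073 in wild-type livers, a difference of -0.017 ± 0.066. Cdkn1b, which encodes p27, differed by 0.027 ± 0.084, and the retinoblastoma gene Rb1 by -0.043 ± 0.060. Cdkn2d differed by 0.21 ± 0.099 and Cdkn1c by -0.11 ± 0.057 (exact permutation p = 0.100 and 0.0667). Myc, which TGF-beta represses in many epithelial cells, ranged from -0.58 to 0.19 in Tgfbr2+/- livers and from -0.33 to 0.021 in wild-type livers, a difference of -0.076 ± 0.13.

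Of 28 further mitosis genes 24 had positive differences, with a median of 0.060, where 52.6% of all genes were positive. An unadjusted p under 0.05 was seen for 1 of them, or 3.57% beside 5.54% of all genes. That gene was Cks1b, a small binding partner of cyclin-dependent kinases, at 0.083 to 0.37 with a median of 0.25 in Tgfbr2+/- livers and at 0.062, -0.13, -0.10 and 0.074 in wild-type livers. All 6 Tgfbr2+/- libraries lay above all 4 wild-type ones, as in 0.726% of all genes, with a difference of 0.26 ± 0.071, or 1.20-fold higher (limma p = 0.00372, adjusted p = 0.616, exact permutation p = 0.0095). It kept an unadjusted p under 0.05 in every alternative run here. Cdca3 (0.24 ± 0.12), Kif4 (-0.15 ± 0.095) and Ccnf (-0.14 ± 0.094) did not reach that p.

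Further replication genes were split, 20 positive and 15 negative of 35, with a median of 0.019, where 52.6% of all genes were positive. Of the 35, 2 had an unadjusted p under 0.05, or 5.71% beside 5.54% of all genes. Rfc3, a subunit of the clamp loader, differed by 0.29 ± 0.12 and Orc2, of the origin recognition complex, by -0.18 ± 0.059 (exact permutation p = 0.0190 for each), while Rfc2 (0.084 ± 0.044) and Orc3 (-0.19 ± 0.11) did not reach an unadjusted p of 0.05. Like Cks1b, Orc2 kept an unadjusted p under 0.05 in every alternative run here. Among 14 further transcription regulators 6 were positive and 8 negative. E2f6, a repressor of the E2F family, was the 1 gene at that p, or 7.14% beside 5.54% of all genes. It was at 0.064 to 0.27 in Tgfbr2+/- livers and at -0.30 to 0.057 in wild-type livers, a difference of 0.22 ± 0.074 (limma p = 0.0131, exact permutation p = 0.0048), and 0.068 with wild-type replicate 1 turned. Lin52 (0.18 ± 0.11), E2f7 (-0.22 ± 0.11) and E2f3 (-0.11 ± 0.064) did not reach it.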

How the data were processed

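Liver RNA of 6 Tgfbr2+/- and 4 wild-type mice was measured on 2-colour arrays against a wild-type pool. The deposited values are log10 ratios, with the base inferred from 8 values at a limit of exactly 2 in size (100-fold); per the labels, RNA was purified on RNeasy columns and amplified with aminoallyl MessageAmp II chemistry. The design text mentions dye swaps. Scanner, background correction and normalization are not given in the sources used here, and the deposited log10 ratios come without intensities, so no filter on dim probes was possible. Multiplication by 3.32 put them on the log2 scale. Of 23438 probes 17726 carry 1 symbol, 50 several and 5662 none; probes of a symbol were averaged to 16383 genes. Sequences are RefSeq's (GRCm38.p6).

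Differences were fitted with limma 3.58.1 in R 4.3.3 (lmFit, eBayes, two-sided, Benjamini-Hochberg over all genes, threshold 0.05). The same limma functions were first run on simulated ratios of single probes, without the averaging of probes to genes. Exact permutation tests are two-sided over 210 splits. Lists get counts and medians, with no test. Named genes are those with an unadjusted p under 0.05, the 3 of smallest p and the 1 of largest difference per group, and landmark genes; for other lists, the 2 of smallest p per direction and 5 fixed genes; other members are named to account for them. Members and lists were chosen with earlier results of these data known. Alternatives were other scalings, array weights, a replicate block, turned columns, libraries left out and probe choices.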

Additional observations from a re-analysis of the deposited data

Results flagged for a closer look

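Ccnd2 in wild-type replicate 4 stood far from the rest of its group, at a log2 ratio of 0.26. Wild-type replicates 1 to 3 lay between -0.13 and -0.11. Of 30 groups examined, those of the 15 named cell cycle genes in Tgfbr2+/- and wild-type liver, this was the 1 so marked, and chance marks about 1 in 20.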

How the results depend on the processing

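All 9 genes with an unadjusted p under 0.05 kept their direction under every alternative run, and all 9 lost that p with Tgfbr2+/- replicate 5 turned in sign. Genes higher at that p numbered 2 with wild-type replicate 1 turned, 0 with Tgfbr2+/- replicate 5 turned, 1 with Tgfbr2+/- replicates 4 and 5 left out and 2 to 7 with single libraries left out, and genes lower 1, 0, 1 and 1 to 3. With Tgfbr2+/- replicate 5 turned, the median difference was 0.0059 in replication and 0.015 in cyclins and kinases. The mitosis genes had their highest mean in that library, at 0.22, and their median difference was also smaller with it turned than in the main fit. With single libraries left out, the medians were 0.034 to 0.048 over all members, -0.046 to 0.012 in replication, 0.055 to 0.11 in mitosis and 0.050 to 0.077 in cyclins and kinases, and 0 to 10 genes of the array passed the adjusted threshold, the 10 without Tgfbr2+/- replicate 3. Against the pool, the genes past it in Tgfbr2+/- liver numbered 1 with scaled or quantile-normalized columns, 10 with array weights, 1 with wild-type replicate 1 turned, 0 with Tgfbr2+/- replicate 5 turned and 0 to 48 with single libraries left out; in wild-type liver they numbered 5 with Tgfbr2+/- replicates 4 and 5 left out and 0 to 1 with single libraries left out. The cause was not tested.

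Small differences that changed sign were those of Cdkn1b (-0.014), Cdkn2b (0.017) and Myc (0.015) with scaled columns, Pcna (0.014) and Mcm2 (-0.0062) with wild-type replicate 1 turned, Pcna (0.042) and Rb1 (0.0043) with Tgfbr2+/- replicate 5 turned, and Pcna (0.028) with Tgfbr2+/- replicates 4 and 5 left out. With single libraries left out, the difference of Foxm1 was -0.0075 to 0.033, of Pcna -0.10 to 0.011, of Cdkn1b -0.068 to 0.070, of Cdkn2b -0.058 to 0.017 and of Rb1 -0.092 to 0.0052. The titles of both groups share the numbers 1 to 4. Deviations from the group means correlated at 0.0072 to 0.302 between same-numbered libraries and at -0.221 to 0.105 between differently numbered ones. Whether the numbers mark pairs is not settled, and the main fit did not use them. With replicate as a block 5 members were higher and 4 lower at an unadjusted p under 0.05, beside 9.27% of all genes in either direction in place of 5.54%. Mcm6, Cenpa, Cdk1, Blm and Nusap1 kept that p under the block, Cdc20, Kif11, E2f1 and Rrm2 lost it, and Mcm4, Cdk6, Cdt1 and Top2a (-0.22) gained it. Blm differed by -0.23.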

Other observations

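Over the 42 measured cell cycle genes, the libraries with the most similar profiles were Tgfbr2+/- replicates 1 and 2 (Pearson correlation 0.786 across genes, and 0.519 over all probes), followed by wild-type replicates 1 and 3 (0.686, and 0.128 over all probes). The least similar were Tgfbr2+/- replicate 3 and wild-type replicate 1, at -0.626 across these genes and 0.0701 over all probes. The values 0.686 and -0.626 rest largely on single genes of large ratio. Ccnd1 was at -0.67 and -0.71 in wild-type replicates 1 and 3 and at 0.72 in Tgfbr2+/- replicate 3. Rrm2 was at 0.22 and 0.73 in wild-type replicates 1 and 3. Genes are not independent replicates, and all libraries share the pool, so these are descriptions with no test.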
